A study of Mus musculus with 4 samples.

Results

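The 52 genes described here encode heterogeneous nuclear ribonucleoproteins and splicing factors. They were chosen by symbol, as the rows of the liver count table whose symbols begin with Hnrnp (19 genes), Srsf (11), Sf3a (3), Sf3b (6) or Prpf (13), out of 46603 gene identifiers, and Hnrnpd and the pseudogene rows marked -ps, 3 rows in all, were left out. The mice carried floxed HuR alleles on the C57BL/6 J background, and the labels give all 4 as male, although the study's methods state that its in vivo work included both sexes. Control mice (1 and 2) received AAV8-TBGP-GFP by tail-vein injection and mice labelled HuR hKO (3 and 4) received AAV8-TBGP-Cre, in which the thyroxine-binding globulin promoter restricts Cre to hepatocytes, so that other cells of the liver were not targeted. Both groups were fed WDSW, a Western diet with fructose and glucose in the drinking water, for 4 weeks, and total liver RNA of 2 mice of each group was sequenced. The ages of the mice were not given in the sources used here beyond being matched.

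Splicing removes introns from pre-mRNA on the spliceosome, a machine of small nuclear RNAs and proteins. SR proteins, the products of the Srsf genes, bind exons through RNA recognition motifs and recruit spliceosome parts through serine-arginine tails, while many hnRNP proteins coat nascent RNA and often oppose them. The SF3a and SF3b complexes hold the U2 particle at the branch point, and most Prpf proteins belong to the U4/U6.U5 tri-snRNP or to steps around it. HuR, the product of Elavl1, is itself an RNA-binding protein that stabilizes many mRNAs through U-rich and AU-rich elements, and several SR genes limit their own output through isoforms that are degraded by nonsense-mediated decay.

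The libraries held between 13032095 and 19715577 counts, of which mouse 4 had the most. Elavl1, the targeted gene, had 377 and 347 counts in control mice and 541 and 648 in mice 3 and 4. Its log2 fold change was 0.41 (unadjusted p = 0.016, adjusted p = 0.545 by edgeR's quasi-likelihood test). After scaling, both mice labelled HuR hKO were above both controls in this gene, against 19.3% of all genes. With a mouse left out, its log2 fold change lay between 0.33 and 0.48. The label was therefore not matched by the level of the targeted gene in these libraries, and every direction below is that of the labels. The study itself reported significantly lower HuR mRNA and protein in HuR hKO livers, and loss of HuR in hepatocytes by immunofluorescence. Whether those measurements included the 4 mice sequenced is not stated. Levels are given as CPM, in which each library is scaled by its total and its TMM factor to make libraries comparable, and fold changes are those of libraries labelled HuR hKO against control. The labels give the replicates as separate animals and tell of no litter or batch, an exact two-sided permutation test of 2 against 2 cannot give a p below 0.333, and the p-values printed come from edgeR, which borrows the spread of all genes. Hepatocyte markers such as Alb were abundant in every library, and the hepatocyte list summed to between 61475 and 69586 CPM.

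The sequences of the SR genes that were furthest below control are shown first, since the account turns on them. The 4 stretches are the 250 bases before the RefSeq start of each gene (GRCm38.p6), written 5′ to 3′ along the gene. Capitals mark matches, on either strand, to the 5 motifs described in the next paragraph. The windows are chr5:115326927-115327176 on the plus strand for Srsf9, chr11:116853095-116853344 on the minus strand for Srsf2, chr2:162931258-162931507 on the plus strand for Srsf6, and chr3:158036607-158036856 on the minus strand for Srsf11, which has 2 starts in the table.
Srsf9 promoter: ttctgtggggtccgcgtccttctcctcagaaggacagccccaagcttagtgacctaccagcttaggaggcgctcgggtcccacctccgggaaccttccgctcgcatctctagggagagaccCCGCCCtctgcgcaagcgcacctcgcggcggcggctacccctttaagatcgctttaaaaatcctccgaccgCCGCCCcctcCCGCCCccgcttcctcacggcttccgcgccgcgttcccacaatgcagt
Srsf2 promoter: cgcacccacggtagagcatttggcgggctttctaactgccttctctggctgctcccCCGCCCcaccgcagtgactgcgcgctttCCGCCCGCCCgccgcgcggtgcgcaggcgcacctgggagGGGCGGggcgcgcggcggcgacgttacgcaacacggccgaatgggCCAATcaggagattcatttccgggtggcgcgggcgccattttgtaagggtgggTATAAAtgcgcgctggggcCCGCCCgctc
Srsf6 promoter: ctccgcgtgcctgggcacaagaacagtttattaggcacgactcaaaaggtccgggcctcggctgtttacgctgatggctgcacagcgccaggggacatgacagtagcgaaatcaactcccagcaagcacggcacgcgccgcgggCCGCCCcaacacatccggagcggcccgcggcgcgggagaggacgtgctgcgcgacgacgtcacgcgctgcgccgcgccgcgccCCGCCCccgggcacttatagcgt
Srsf11 promoter: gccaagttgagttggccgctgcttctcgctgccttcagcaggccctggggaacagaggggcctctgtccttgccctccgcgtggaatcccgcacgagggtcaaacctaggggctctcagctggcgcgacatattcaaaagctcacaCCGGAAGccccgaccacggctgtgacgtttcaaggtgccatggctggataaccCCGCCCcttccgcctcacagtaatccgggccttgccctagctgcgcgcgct

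The promoters of the whole set were rich in CpG. RefSeq promoters of 300 bases were found for 46 of the 52 members, 62 promoters in all, and not for 6. Their median number of CG dinucleotides was 26.5, against 7.0 over all 32851 promoters of the table. Those include promoters of non-coding genes, of pseudogenes and of genes not tested here. Promoters of tested genes alone were not compared. CCGGAAG, the core of ETS-family sites, stood in 32.3% of the members' promoters and in 8.86% of all promoters. GGGCGG, a GC box, stood in 69.4% against 35.7%, and CCAAT in 51.6% against 37.4%. TATAAA was found in 8.06% of the members' promoters against 13.6% of all, and GCATGCG in 8.06% against 3.58%. All motifs were searched on both strands. Of the 4 promoters above, that of Srsf2 holds TATAAA and CCAAT, and that of Srsf11 holds CCGGAAG. A match describes these letters only.

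The U-rich elements to which HuR is known to bind were looked for in the 3′ UTRs of all members. The letters TTTATTT, in capitals below, are shown for transcripts of 4 members with low p-values (GENCODE M21). These are examples and not all of those that hold them, and the 3′ UTR of Srsf2 holds none. Members near control hold them too, among them Hnrnpk (1 match), Srsf3 (2) and Srsf10 (4). In the 4 shown, the first match begins at base 527 (Hnrnph1), 649 (Prpf4b), 681 (Srsf11) and 1562 (Srsf6) of the 3′ UTR. All lie beyond the first 500 bases, to which the shares in the next paragraph refer. The stretches of 29 bases around the first match are written 5′ to 3′ along the transcript. They lie at chr2:162936308-162936336 (Srsf6), chr3:158011311-158011339 on the minus strand (Srsf11), chr11:50386292-50386320 (Hnrnph1) and chr13:34902234-34902262 (Prpf4b).
Srsf6: taagaaataggTTTATTTttccagtgtaa
Srsf11: tcccccaataaTTTATTTcacatctctac
Hnrnph1: ttaattctaaaTTTATTTgataacctgta
Prpf4b: actgatcttgtTTTATTTtttcgcatcgc

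Within the first 500 bases of the 3′ UTR, TTTATTT was found in 18.9% of the 37 tested members with a 3′ UTR that long and in 18.3% of 8405 coding genes tested. The shorter ATTTA was found in 59.5% and 48.2% of them. Of the 6 members with an unadjusted p under 0.05 and a 3′ UTR that long, 1 held TTTATTT there (16.7%) and 5 held ATTTA (83.3%). Members with a shorter 3′ UTR, Srsf9 among them, did not enter these shares. Another feature was more frequent among the SR genes. GENCODE M21 annotates an isoform subject to nonsense-mediated decay for 9 of the 10 Srsf genes tested, for 51.0% of the 51 members tested and for 28.7% of 11978 coding genes tested. The values here are gene-level counts, in which such isoforms and the coding ones cannot be told apart.

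As shown in the plot of all members by mouse, most of these genes lay close to control in the libraries labelled HuR hKO, and the SR genes stood lowest. Of the 52 members, 51 passed edgeR's filter on low counts. Srsf12, an SR-related gene, did not, with 0, 0, 1 and 0 counts in mice 1 to 4. No member had an adjusted p under 0.05 (0 of 51 by edgeR, and 0 by the DESeq2 Wald test and by limma-voom), against 0.0231% of the 13001 genes tested. The smallest was 0.287, for Srsf9. No member reached a fold change of 1.8 with an unadjusted p under 0.05, which 2.12% of all genes did. An unadjusted p under 0.05 was found for 7 members, against 7.43% of all genes. All 7 were lower, against 3.39% of all genes that were lower at this threshold, and 0 were higher, against 4.04%. Counted by direction alone, 32 members were fitted below and 19 above control, and their median log2 fold change was -0.06 against 0.00 over all genes. Without scaling for library size, which moved the median of all genes to 0.31, 8 were lower and 43 higher, and the median of the members stood 0.06 below that of all genes, as it did with TMM. Relative to the median of all genes, that of the members was -0.026 with offsets for GC content and length. With a mouse left out it ranged from -0.092 (without control mouse 2) to -0.027 (without mouse 4).

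The levels of the 2 groups did not overlap in 16 members that were lower in both libraries labelled HuR hKO (31.4%, against 18.8% of all genes) and in 10 that were higher in both (19.6%, against 19.3%). The groups overlapped in the other 25. Between mice of 1 group the members varied little. The median difference between the control mice was 0.10 on the log2 scale for the members and 0.22 over all genes, and that between mice 3 and 4 was 0.09 and 0.20. Over the 7785 genes whose levels lie within the members' range, these medians were 0.17 and 0.15. The fitted change was within 10% of control for 28 members.

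SR proteins were the family furthest from control. Of the 10 Srsf genes tested, 9 had a fitted level below control with TMM, but 4 without scaling for library size, where all genes shifted up by 0.31. Their median log2 fold change was -0.23, which stood 0.23 below that of all genes with TMM and 0.24 below it without scaling. In 6 of them both libraries labelled HuR hKO were below both control libraries, against 18.8% of all genes, and 4 were lower with an unadjusted p under 0.05, against 3.39%. With each mouse left out in turn, 8 to 10 of the 10 stayed lower and the median lay between -0.34 and -0.15. In bulk liver, fewer cells of a type and less RNA per cell cannot be told apart.

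Srsf9, which encodes the SR protein SRp30c, showed the largest difference of all members. It lies on chromosome 5 from 115327177 to 115333080 and had 389 and 415 counts in control mice and 300 and 320 in mice 3 and 4, of which mouse 4 had the deepest library. Its level was 29.2 and 30.9 CPM in control mice and 20.9 and 16.97 CPM in mice 3 and 4. Both mice labelled HuR hKO were below both controls, and mouse 4 was the lowest. The log2 fold change was -0.67 (standard error 0.152, unadjusted p = 0.0021, adjusted p = 0.287 by edgeR). Its unadjusted p stayed under 0.05 with each mouse left out, at most 0.0289 without mouse 4, and of the alternatives run only the fit with no filter on low counts gave it an adjusted p under 0.05 (0.0436).

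Srsf2, also known as SC35 and a marker of nuclear speckles, is encoded on chromosome 11, minus strand, between 116849901 and 116853094. There were 136 and 126 CPM in the control mice and 99.4 and 95.9 CPM in mice 3 and 4. The gap between the groups was wider than that between mice of either group. The log2 fold change was -0.43 (standard error 0.126, unadjusted p = 0.00927, adjusted p = 0.471 by edgeR). All of Srsf2 lies within Mettl23 on the opposite strand and its start overlaps Mfsd11, and 35.2% of its 50-base windows occur in transcripts of other genes. Mettl23 had 200, 211, 190 and 318 counts in mice 1 to 4, far fewer than the 1811, 1693, 1427 and 1808 of Srsf2, and no source says that reads were assigned by strand.

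Srsf11, a protein that contacts the U2AF factor at the 3′ splice site, had 77.3 and 82.5 CPM in control mice and 63.8 and 59.97 CPM in mice 3 and 4. Srsf6 (SRp55) had 106 and 101 CPM in control mice and 84.4 and 77.5 CPM in mice 3 and 4. In both genes the groups were apart, with log2 fold changes of -0.37 (standard error 0.126) for Srsf11 and -0.35 (standard error 0.126) for Srsf6. Their unadjusted p-values by edgeR were 0.0184 and 0.0234, and the adjusted ones 0.565 and 0.574. Srsf11 spans chromosome 3 from 158010473 to 158036639 and Srsf6 chromosome 2 from 162931528 to 162937121, and neither shares a 50-base window with another gene.

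The other SR genes tested were nearer to control. Srsf7 (9G8), an SR protein with a zinc knuckle, had 22.02 and 23.1 CPM in control mice and 19.4 and 18.03 CPM in mice 3 and 4, with the groups apart and a log2 fold change of -0.27 (adjusted p = 0.699 by edgeR). Srsf1 (SF2/ASF), the founding SR protein, had 75.8 and 75.7 CPM in control mice, 72.04 CPM in mouse 3 and 60.4 CPM in mouse 4. Mouse 4 was the one far from control here, and without it the log2 fold change of -0.19 became -0.07. Srsf5 (SRp40), the SR gene with the highest level, had 280 and 313 CPM in control mice and 280 and 248 CPM in mice 3 and 4, and the groups overlapped. Srsf3 (SRp20), the smallest SR protein, had 57.7 and 52.6 CPM against 52.3 and 54.5 CPM, a log2 fold change of -0.05 that was smaller than its standard error of 0.128. Srsf4 (-0.07) was also within its standard error of 0.128. Srsf10 was the 1 SR gene above control with TMM (0.07), against 6 with unscaled counts, where the median of all genes was 0.31.

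**Figure D1:**
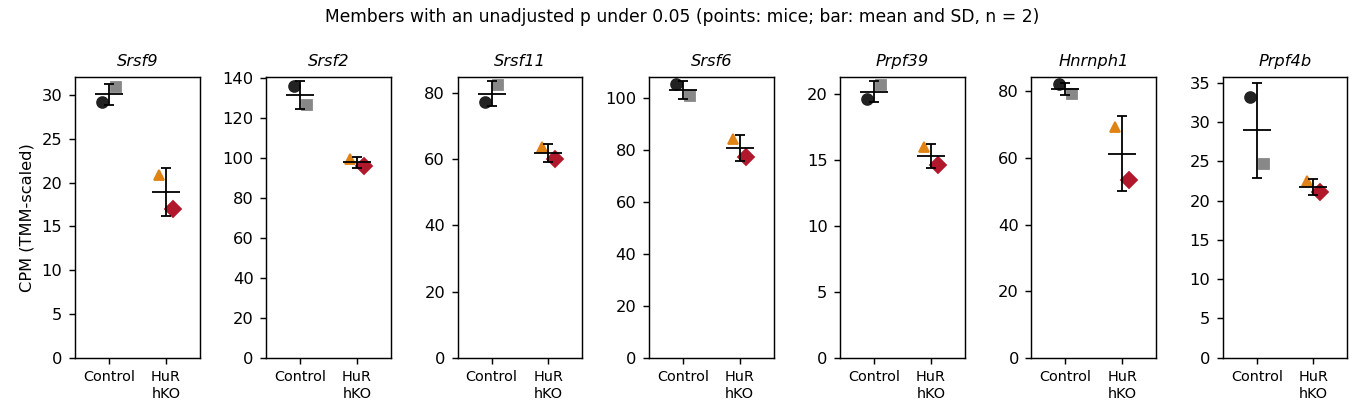
Each panel plots CPM (y axis from 0) for 1 of the 7 members with an unadjusted p under 0.05, with a point for each mouse and a bar for the mean and SD of 2 mice. In all 7 panels mice 3 and 4 lie below both controls; the spread is widest in controls for Prpf4b and in the mice labelled HuR hKO for Hnrnph1.

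A comparison within each library needs no scaling. The members together took 0.389% and 0.363% of all counts in control mice and 0.376% and 0.331% in mice 3 and 4, so their total overlapped between the groups. Of the members' own counts, the Srsf genes took 22.8% and 23.96% in control mice and 21.4% and 20.4% in mice 3 and 4. The Hnrnp genes took 53.0% and 51.9% against 54.5% and 54.3%. For each Hnrnp count there were 0.430 and 0.461 Srsf counts in control mice, against 0.393 and 0.376 in mice 3 and 4. Both mice labelled HuR hKO were thus below both controls in this ratio. These shares weight genes by their counts, of which Srsf5 holds the most in its family. They are parts of a whole, so a lower Srsf share raises the summed share of the other families.

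**Figure D2:**
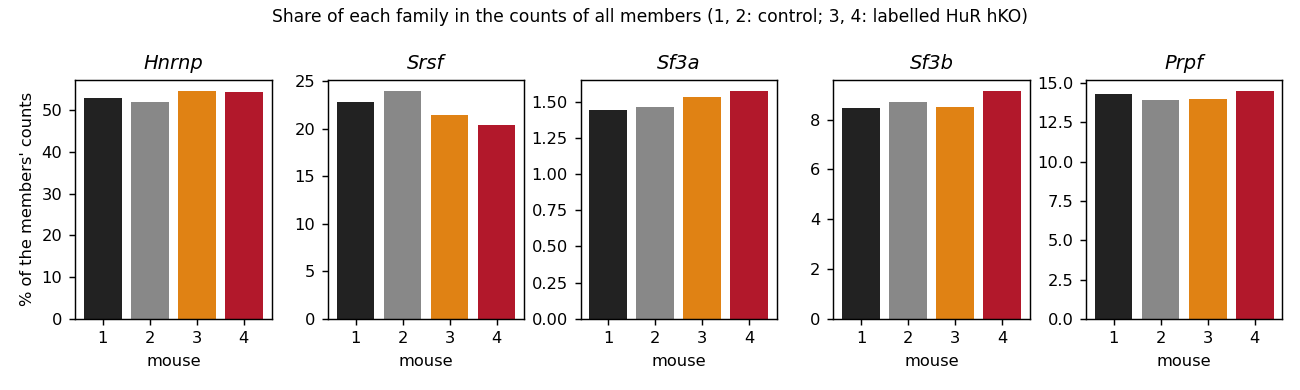
Bars give the share of each family in the counts of all members in each mouse (y axis in %, from 0; x axis, mouse). The Srsf share is 22.8% and 23.96% in control mice 1 and 2 and 21.4% and 20.4% in mice 3 and 4. The Hnrnp and Sf3a shares are higher in mice 3 and 4 than in both controls. Shares are parts of a whole, so a lower Srsf share raises the summed share of the other families.

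Mouse 4 was the furthest from control. Of the 51 members it had the lowest CPM in 26 and the highest in 11, and of the 10 Srsf genes it had the lowest in 8. Control mouse 1 had the highest CPM in 21 members. These counts were not made over all genes. The median log2 level of the Srsf genes relative to the control mean was 0.02 and -0.02 in control mice, -0.15 in mouse 3 and -0.32 in mouse 4. Without mouse 4, 1 of the 7 members with an unadjusted p under 0.05 kept it, Srsf9. Without control mouse 1, 4 of the 7 did so (Srsf9, Srsf2, Srsf11 and Prpf39). Without control mouse 2 or without mouse 3, 5 of the 7 kept it. With 1 mouse left in a group, the fit assumes that it varies like the other group.

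The hnRNP genes were close to control as a family. Of the 19, 12 were lower and 7 higher with TMM. With unscaled counts, where the median of all genes was 0.31, 2 were lower and 17 higher. With TMM the median log2 fold change of the 19 was -0.06, and 14 were within 10% of control. Hnrnph1, which binds runs of G, was the furthest from control. It had 82.1 and 79.3 CPM in control mice, 69.3 CPM in mouse 3 and 53.4 CPM in mouse 4. Its log2 fold change was -0.40 (standard error 0.153, unadjusted p = 0.0316, adjusted p = 0.611 by edgeR), and it was -0.22 without mouse 4. Its relative Hnrnph3 (-0.31) had the groups apart in the same direction, with 19.8 and 21.8 CPM against 17.4 and 16.1 CPM.

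The most abundant hnRNP genes, and Hnrnpa1, had fitted differences smaller than their standard errors. Hnrnpa2b1, which encodes a core protein of hnRNP particles, had 339 and 317 CPM in control mice and 334 and 282 CPM in mice 3 and 4. Hnrnpa1, known for repressing exon inclusion, had 41.8 and 37.7 CPM against 37.1 and 39.2 CPM. In both genes the groups overlapped, with log2 fold changes of -0.09 and -0.06. Hnrnpa3 (0.08) and Hnrnpab (0.00) were also within their standard errors of 0.143 and 0.128. Hnrnpk, which binds C-rich RNA, had 207 and 190 CPM against 203 and 196 CPM, a log2 fold change of 0.01. Hnrnpf, which binds runs of G, had 161 and 162 CPM against 177 and 170.04 CPM, with the groups apart and a log2 fold change of 0.11 (standard error 0.125). Hnrnpu, a large nuclear scaffold protein, had one of -0.10 with a standard error of 0.129.

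Hnrnpc, which binds U tracts and competes with U2AF, had the largest positive value in its family. It had 63.2 and 59.4 CPM in control mice and 64.7 and 71.05 CPM in mice 3 and 4, and the groups did not overlap. The log2 fold change was 0.15 and its standard error 0.128 (adjusted p = 0.838 by edgeR). Many hnRNP genes have processed pseudogenes, and 46.4% of the 50-base windows of Hnrnpa1, 37.8% of those of Hnrnpk and 28.2% of those of Hnrnpa3 occur in transcripts of other genes. Over the whole set, 11 members share at least 25% of their windows, with Hnrnpf (67.3%), Srsf4 (65.4%) and Sf3b4 (51.2%) at the head. The counts were at most 126 on Gm7964, which shares windows with Hnrnpk, and 118 on Gm5641, which shares windows with Hnrnpa3. Some members share windows with overlapping coding genes instead. March2, which shares 28.8% of the windows of Hnrnpm, had 714, 790, 641 and 967 counts in mice 1 to 4. Phykpl, which overlaps Hnrnpab, had 162, 174, 192 and 243. How reads shared with such copies or genes were counted is not stated, and the levels of these members are uncertain to that extent.

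SF3a and SF3b are complexes of the U2 particle, and of their 9 genes 6 were fitted above control with TMM (9 with unscaled counts). The median log2 fold change was 0.06, and in 6 both mice labelled HuR hKO were above both controls, against 19.3% of all genes. No unadjusted p was under 0.05. With offsets for GC content and length, 5 of the 9 were higher. Sf3b6, the small subunit that touches the branch point adenosine, had the largest positive value of all members, with 19.02 and 17.7 CPM in control mice and 21.5 and 23.01 CPM in mice 3 and 4. Its log2 fold change was 0.28 (standard error 0.14, unadjusted p = 0.0816, adjusted p = 0.697 by edgeR). Sf3b5, another small subunit, had 27.7 and 32.1 CPM against 33.8 and 35.8 CPM, a log2 fold change of 0.22.

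The largest SF3b subunit was below control with TMM. With unscaled counts its log2 fold change was 0.07, against a median of 0.31 over all genes. This gene, Sf3b1, which clamps the branch site and is the target of several splicing inhibitors, had 125 and 118 CPM in control mice and 104 and 101 CPM in mice 3 and 4. The groups did not overlap, and the log2 fold change was -0.24 (standard error 0.124, unadjusted p = 0.086, adjusted p = 0.698 by edgeR). Its partner Sf3b2 had 105 and 108 CPM against 102 and 110 CPM, a log2 fold change of -0.01. The genes of SF3a, which joins SF3b in the mature U2 particle, differed by less than their errors, with log2 fold changes of -0.07 for Sf3a1, 0.09 for Sf3a2 and 0.06 for Sf3a3. All lay within standard errors of 0.137 to 0.149.

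Among the Prpf genes, 8 of 13 were lower with TMM, and the median log2 fold change was -0.10. With unscaled counts 2 were lower, and the median of all genes was 0.31. In 6 of the 13 both mice labelled HuR hKO were below both controls with TMM, against 18.8% of all genes. In 2 both were above, against 19.3%. Prpf39, which encodes a protein of the U1 particle, had 19.6 and 20.7 CPM in control mice and 15.96 and 14.6 CPM in mice 3 and 4. Its log2 fold change was -0.40 (standard error 0.145, unadjusted p = 0.0242, adjusted p = 0.574 by edgeR). Its end overlaps Fkbp3 on the opposite strand, which had 189, 191, 258 and 291 counts in mice 1 to 4.

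Prpf4b, a kinase that phosphorylates tri-snRNP proteins, had 33.2 and 24.7 CPM in control mice and 22.4 and 21.05 CPM in mice 3 and 4. Control mouse 1 stood apart from the other 3 mice in this gene. The log2 fold change was -0.41 (standard error 0.169, unadjusted p = 0.0394, adjusted p = 0.633 by edgeR), and -0.20 without that mouse. With offsets for GC content and length the unadjusted p-values of Prpf4b and Prpf39 were 0.0691 and 0.061, while those of the other 5 lower members stayed under 0.05.

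Prpf8, Prpf6 and Prpf19 had fitted differences smaller than their standard errors. Prpf8, at the catalytic heart of the spliceosome, had 163 and 145 CPM in control mice and 151 and 159 CPM in mice 3 and 4, a log2 fold change of 0.01. Prpf6, which bridges the parts of the tri-snRNP, had 57.6 and 61.4 CPM against 57.3 and 55.1 CPM, and Prpf19, the ubiquitin ligase of the Prp19 complex, had 92.7 and 85.2 CPM against 92.2 and 95.9 CPM. Their log2 fold changes of -0.08 and 0.08 were within their standard errors of 0.125 and 0.126. Prpf31, a U4/U6 protein, had 12.3 and 12.8 CPM in control mice and 15.3 and 13.4 CPM in mice 3 and 4, and Prpf38a had 7.44 and 7.53 CPM against 8.08 and 8.80 CPM. Both were above control in both mice, with log2 fold changes of 0.19 and 0.18 and adjusted p-values by edgeR of 0.829 and 0.871.

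Compared per transcript length, the members covered a wide range in control liver. Levels per kilobase of the annotated principal transcript ran from 1.19 CPM per kb (Hnrnpr) to 197 CPM per kb (Hnrnpa2b1). Hnrnpa2b1 (197 ± 9.55, SD, n = 2) and Srsf5 (189 ± 14.97) headed the order and did not differ beyond their spread, and Hnrnpa3 followed at 139 ± 17.2. Hnrnpab (76.3 ± 2.22), Hnrnpk (74.1 ± 4.47) and Srsf2 (69.1 ± 3.68) came next, and these neighbours overlapped too. In the libraries labelled HuR hKO, Srsf2 stood at 51.4 ± 1.33 CPM per kb, against 74.5 ± 1.77 for Hnrnpk. The lowest place of Hnrnpr goes with a transcript annotated at 21452 bases, of which 19419 are 3′ UTR.

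**Figure D3:**
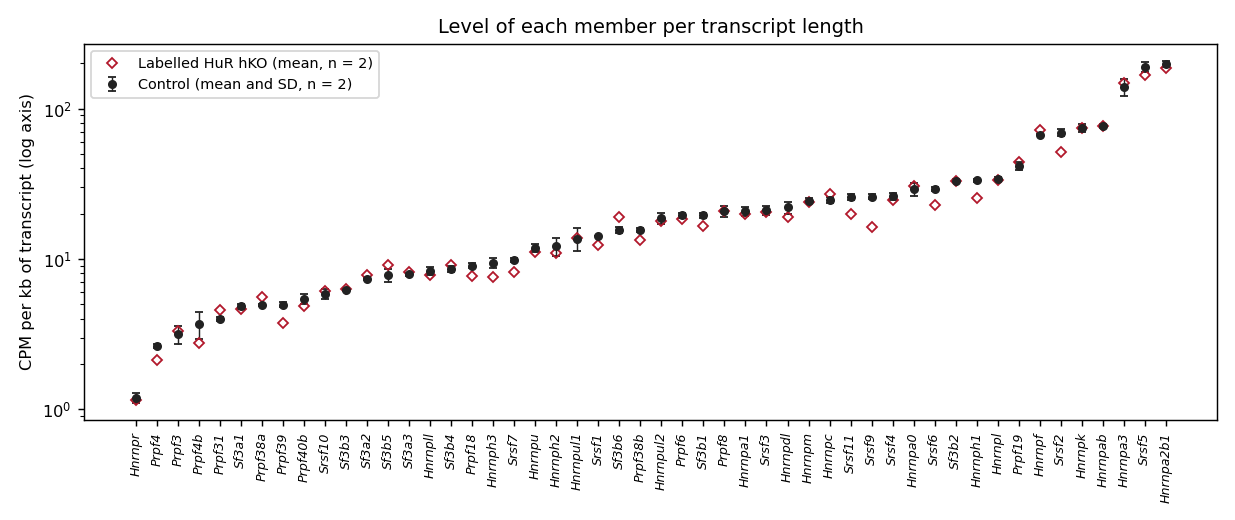
CPM per kb of transcript (y axis, log scale) of the tested members in order of their control level (x axis), with the mean and SD of 2 control mice (circles) and the mean of the 2 mice labelled HuR hKO (diamonds). Levels run from 1.19 to 197 CPM per kb in control, and the diamonds of Srsf2, Srsf9, Srsf6 and Srsf11 lie below the circles.

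Other genes of the splicing pathway were read from a list of 156, of which 154 were in the table and 152 were tested. The list was made with earlier results of these data known, so it is no independent check of the members. As in the members, no adjusted p was under 0.05, and 10 were lower and 3 higher at an unadjusted p under 0.05, against 3.39% and 4.04% of all genes. The median log2 fold change of the 152 was -0.03 with TMM. With unscaled counts it was 0.28, and that of all genes was 0.31. Among 32 kinases and cofactors of SR proteins, 28 were lower with TMM (3 with unscaled counts), their median was -0.11, and in 18 both mice labelled HuR hKO were below both controls (56.2%, against 18.8% of all genes). Among 42 other proteins of the core snRNPs, 30 were higher with TMM (41 with unscaled counts) and the median was 0.06, but 20 were higher without control mouse 1. Other splicing regulators were lower in 32 of 41 (5 of 41 without scaling), the exon junction complex in 8 of 10 (1 of 10), and a list of Prp19-complex and other catalytic-step factors in 13 of 27 (1 of 27). Without control mouse 2, 4 of the 10 exon junction genes were lower and 6 higher, with a median of 0.05.

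The genes of this list that are named here, from those with the smallest p-values, were below control with TMM. Ddx23, the U5 helicase, had 51.6 and 52.9 CPM in control mice and 38.2 and 33.9 CPM in mice 3 and 4, a log2 fold change of -0.54. The groups were well apart in this gene, but the adjusted p by edgeR was 0.36. Srrm2, a scaffold of nuclear speckles where SR proteins gather, had 223 and 200 CPM against 166 and 158 CPM (log2 fold change -0.39). Clk1, a kinase that phosphorylates SR proteins, had 51.4 and 65.6 CPM against 46.3 and 43.9 CPM (-0.38). Syncrip, an hnRNP Q protein, and the helicase gene Ddx17 had log2 fold changes of -0.39 and -0.47.

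**Figure D4:**
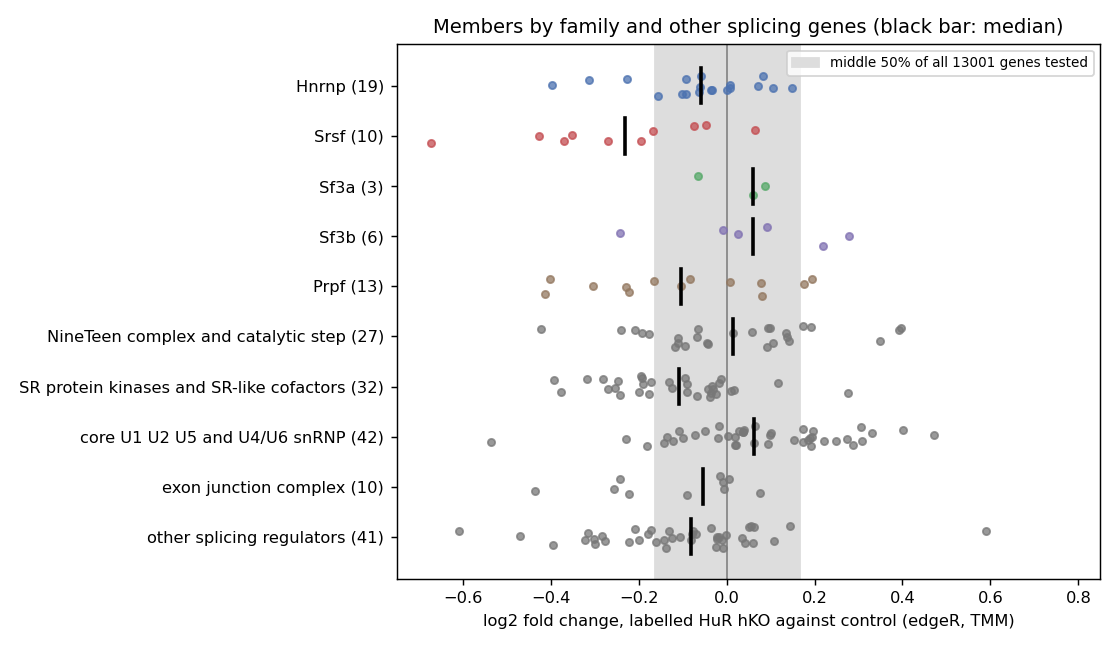
Points are fitted log2 fold changes with TMM scaling (x axis) of members by family and of other splicing genes by list, with the number of genes tested in brackets and black bars at the medians. The Srsf median is -0.23 and that of the SR kinases and cofactors -0.11, against 0.06 for the Sf3b genes and for the core snRNP list. Without scaling for library size each of these medians is above 0, and that of all genes is 0.31. The grey band is the middle 50% of all 13001 genes.

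Markers of other liver cells were read beside these results. The stellate cell list of 8 genes summed to 210 and 216 CPM in control mice and to 231 and 287 CPM in mice 3 and 4, with 7 of 8 genes higher and 2 with an unadjusted p under 0.05, against 7.43% of all genes. All 7 endothelial markers were fitted above control, with sums of 237 and 201 CPM against 263 and 238 CPM. The Kupffer cell and macrophage list (5 of 8 higher) summed to 167 and 173 CPM against 195 and 179 CPM, and the proliferation list to between 8.79 and 11.4 CPM. The sums of the B cell (4.06 to 31.2 CPM), T and NK cell (3.53 to 4.92 CPM), neutrophil (1.54 to 2.31 CPM) and cholangiocyte (27.5 to 52.8 CPM) lists were small, and Ly6g was at 0 in every library. No marker had an adjusted p under 0.05, and the part of other cells or of depth in the levels of the splicing genes was not tested.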

How the data were processed

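Total liver RNA of 4 mice was sequenced. The authors deposited whole-number counts per gene, not normalized, in 1 table; the submitters' processing notes name RSEM and GRCm38 without their roles, and if RSEM made the counts they are rounded estimates. Use of strand was not given in the sources used here. Symbols were found for 46005 of 46603 identifiers and GENCODE M21 coordinates (GRCm38) for 46091. All 4 columns were matched to a mouse. Counts were TMM-scaled in edgeR 4.0.16 (R 4.3.3) after its filter (minimum 10, total 15), tested by quasi-likelihood and adjusted by Benjamini-Hochberg over 13001 genes. Library pairs differed by more than sampling noise (chi-square per degree of freedom 21.2 to 32.7). TMM factors were 0.957 to 1.04, and mitochondrial genes took 6.56% to 7.64% of counts. A count of 0 allows up to 3 counts, 0.159 to 0.225 CPM, covering counting error only. Alternatives used DESeq2 1.42.0 and limma 3.58.1, and tests were tested on simulated data. Tables and figures were made in matplotlib 3.10.9, numpy 2.4.6, pandas 2.3.3 and python 3.11.15. Levels per kilobase use the longest principal coding transcript. Genes named are members with an unadjusted p under 0.05, the 5 largest values in each direction, the 3 most abundant of each family, members below the filter, well-studied members and the 6 other splicing genes with the smallest p; Hnrnph3, Hnrnpf, Srsf4, Srsf10, Sf3b4 and Hnrnpr were named after their values were seen, and some items these rules cover are not reported here. Members and lists were chosen with earlier results of these data known.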

Additional observations from a re-analysis of the deposited data

How the results depend on the processing

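The alternatives were DESeq2's size factors, upper quartile factors, no scaling for library size, no filter on low counts, at least 10 counts in every library, the DESeq2 Wald test, limma-voom, offsets for GC content and length (99.7% of genes tested had both) and leaving out each mouse in turn. No paired analysis was possible because the groups share no replicate numbers. With a mouse left out, the lone mouse is assumed to vary like the other group. Over all genes, 3 had an adjusted p under 0.05, and 85 by the DESeq2 Wald test, 161 with no filter, 155 with no scaling and 0 to 76 with a mouse left out. The threshold of fold 1.8 gave 276 genes, 526 with no filter, 571 with no scaling and 262 to 506 with a mouse left out. Of the members, 1 had an adjusted p under 0.05 with no filter (Srsf9, log2 fold change -0.68) and 0 under every other alternative. The 7 lower members at an unadjusted p under 0.05 became 0 with no scaling, where 1 member was higher, and 1 to 5 with a mouse left out. By the DESeq2 Wald test 5 of the 7 stayed under it, and Prpf39 and Prpf4b did not. With no scaling, 1 other splicing gene passed fold 1.8, and the medians were 0.25 for the members and 0.28 for the other splicing genes, which ranged from -0.076 to -0.020 with a mouse left out. The Srsf median was below that of all genes under every alternative.

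With no scaling the median of all genes moved to 0.31, and mouse 4 had the most counts. Some values changed sign. With no scaling these were Hnrnpa1 (0.26), Hnrnpa2b1 (0.21), Hnrnpu (0.22), Prpf6 (0.23), Sf3a1 (0.24), Sf3b1 (0.069), Sf3b2 (0.31), Srsf1 (0.10), Srsf3 (0.27), Srsf5 (0.14) and Srsf7 (0.038). With GC and length offsets they were Hnrnpab (-0.029), Hnrnpu (0.020), Sf3a2 (-0.039) and Srsf3 (0.041). Hnrnpab was -0.0027 with DESeq2's test and size factors, -0.0089 with at least 10 counts, -0.012 with no filter and -0.0097 with upper quartiles. Hnrnpk was -0.0012, -0.0040 and -0.0016 under the last 3, and Prpf8 -0.0025, -0.0052 and -0.0022. With a mouse left out, the ranges were -0.13 to 0.0051 for Hnrnpa1, -0.24 to 0.027 for Hnrnpa2b1, -0.035 to 0.20 for Hnrnpa3, -0.071 to 0.053 for Hnrnpab, -0.051 to 0.058 for Hnrnpk, -0.075 to 0.083 for Prpf8, -0.15 to 0.0024 for Sf3a1, -0.062 to 0.026 for Sf3b2 and -0.11 to 0.0099 for Srsf3. The cause of the moves under the other alternatives was not tested. Depth limits the precision of the least abundant members, such as Prpf38a with 99 to 166 counts, and 25 of the 52 members overlap another annotated gene.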
